A study of Ovis aries with 6 samples.

Results

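PTGS2 and LTB4R, an enzyme of prostaglandin synthesis and a receptor for a leukotriene, were followed in the somatic cells of sheep milk, that is the immune and epithelial cells that leave the udder with it. They were found by gene symbol among the RefSeq transcripts of the deposited table: 2 of 49705 transcripts, 1 for each gene. PTGS2 was the transcript NM_001009432.1. LTB4R was the transcript XM_004010297.2, matched without its version to 1 of the 4 transcripts that RefSeq lists for LTB4R in assembly ARS-UI_Ramb_v3.0. The pair was chosen by the measured difference between the diets in these same libraries, PTGS2 lower and LTB4R higher with linseed. The difference between diets is therefore given for both genes as a description, with its error and with no test.

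Milk came from 3 Comisana ewes, a dairy breed, at 90 days of lactation. In the control period (libraries control 1 to 3) each ewe ate grass hay with a commercial concentrate for 3 weeks. In the linseed period (libraries linseed 1 to 3) the same ewes ate grass, hay and a concentrate of which extruded linseed made up 20% of the dry matter, again for 3 weeks. Milk was sampled when the experiment began and when it ended. Linseed always came second, and no library is from a ewe kept on the control diet, so the diet and the time between milkings cannot be told apart. Each number is 1 ewe: control 1 and linseed 1 are both sheep 1. Cells were pelleted from 250 ml of milk with no sorting, and each library therefore mixes all cell types of that milk.

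Both genes belong to the eicosanoid pathway, which turns fatty acids of the cell membrane into local signals. Phospholipases free arachidonic acid, the cyclooxygenases PTGS1 and PTGS2 turn it into the precursor of prostaglandins and thromboxane, and the lipoxygenase ALOX5 with its partner ALOX5AP turns it into leukotrienes. PTGS2 is the cyclooxygenase that inflammatory stimuli induce, in macrophages and epithelium among other cells, and its mRNA is short-lived. LTB4R is the high-affinity receptor for leukotriene B4, by which neutrophils and other white cells move toward a site of inflammation. Linseed is rich in alpha-linolenic acid, the parent of the omega-3 fatty acids that compete with arachidonic acid for these enzymes. In milk, both genes bear on the white cells of the udder, whose number and state change with infection and with the stage of lactation.

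Values are RPKM, reads scaled to the length of the transcript and to the total of the library. The libraries held 4941935 to 22644050 reads, as solved from the steps between low RPKM values. Linseed libraries 1 and 2 were the shallowest of the 6. Genes of milk proteins took 48.1%, 36.0% and 4.44% of the reads in control 1, 2 and 3 and 30.3%, 23.7% and 1.28% in linseed 1, 2 and 3. A smaller share of the reads was thus left for other genes in sheep 1 and 2 than in sheep 3. Both epithelial and immune markers were present in all libraries, as the label milk somatic cells implies. Beta-casein (CSN2) was at 2291 RPKM or more and the macrophage gene CD68 at 70.4 RPKM or more.

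PTGS2 was measured at 2.76, 2.87 and 10.0 RPKM in control 1, 2 and 3 and at 0.174, 0.816 and 2.54 RPKM in linseed 1, 2 and 3. Every linseed library lay below every control library, and sheep 3 was the highest under both diets. These levels rested on 218, 88 and 370 reads in the controls and on 3, 17 and 176 reads with linseed, for a transcript whose length was solved as 3483 nt. The group means were 5.22 ± 4.16 RPKM (SD, n = 3) in controls and 1.18 ± 1.22 RPKM with linseed, a 4.44-fold lower mean. On the scale of log2(RPKM + 1), which understates the change of low transcripts, the difference was -1.47 ± 0.65 (SE).

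The gap between the groups was narrow for PTGS2. Its lowest control level, 2.76 RPKM in sheep 1, had an exact Poisson 95% interval of 2.41 to 3.16 RPKM, and its highest linseed level, 2.54 RPKM in sheep 3, an interval of 2.18 to 2.94 RPKM. These intervals cover counting error only, since copies of 1 molecule made by PCR are not told apart from separate molecules. At this depth the order of those 2 libraries was not resolved. Each sheep against its own control left more room, because the sheep with the highest linseed level also had the highest control level.

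Within each ewe, PTGS2 was lower with linseed. In sheep 1 the level was 15.9-fold lower, with an exact 95% counting interval of 5.36 to 77.5, a wide interval because linseed 1 held 3 reads of the gene. Sheep 2 had a 3.51-fold lower level (2.07 to 6.30) and sheep 3 a 3.95-fold lower level (3.29 to 4.75). The intervals of sheep 2 and 3 overlap, while that of sheep 1 lies above that of sheep 3. The corresponding differences in log2(RPKM + 1) were -1.68, -1.09 and -1.64.

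LTB4R had the opposite direction. Its levels were 0.122, 0.365 and 1.21 RPKM in control 1, 2 and 3 and 3.99, 2.23 and 5.21 RPKM in linseed 1, 2 and 3. All linseed libraries lay above all control libraries, and sheep 3 was again the highest under both diets. The transcript, solved as 2180 nt long, had 6, 7 and 28 reads in the controls and 43, 29 and 226 reads with linseed, and linseed 3 alone held 75.8% of its linseed reads. Means were 0.566 ± 0.572 RPKM (SD, n = 3) in controls and 3.81 ± 1.499 RPKM with linseed, a 6.73-fold higher mean, and the difference in log2(RPKM + 1) was 1.63 ± 0.54 (SE).

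Low counts in the controls set the precision for LTB4R. The highest control level, 1.21 RPKM in sheep 3, had an exact Poisson 95% interval of 0.805 to 1.75 RPKM, and the lowest linseed level, 2.23 RPKM in sheep 2, an interval of 1.49 to 3.20 RPKM, so these intervals overlap as well. Sheep 1 had a 32.8-fold higher level with linseed (exact 95% counting interval 13.9 to 94.4), sheep 2 a 6.10-fold higher level (2.62 to 16.5) and sheep 3 a 4.30-fold higher level (2.89 to 6.61). The interval of sheep 1 lies above that of sheep 3, as it did for PTGS2. In log2(RPKM + 1) the differences were 2.15, 1.24 and 1.49.

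**Figure D1:**
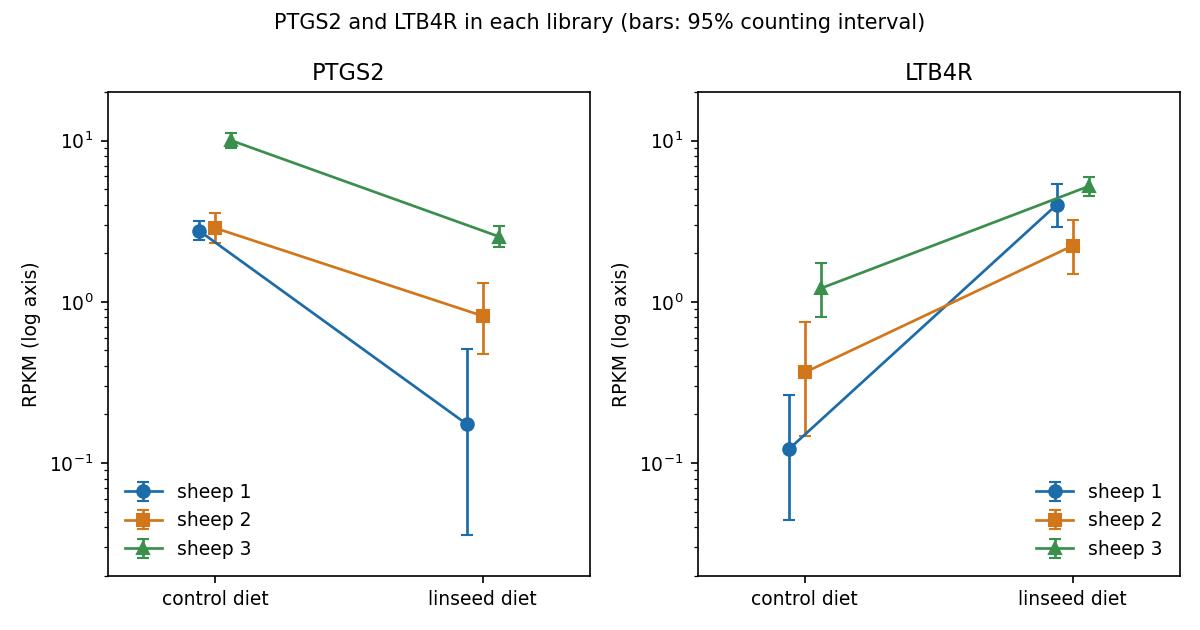
RPKM of PTGS2 (left) and LTB4R (right) on a log axis in the control and linseed library of each ewe, with lines joining the libraries of 1 ewe and bars for the exact 95% Poisson counting interval. PTGS2 is lower with linseed in all 3 sheep, down to 0.174 RPKM in sheep 1, and LTB4R is higher in all 3, up to 5.21 RPKM in sheep 3.

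A linseed range wholly on 1 side of the control range was common in these libraries, and so was the same sign in all ewes. Testing took the 15891 transcripts that averaged 1 RPKM or more over all libraries. Of these, 7.83% had every linseed library below every control library, as PTGS2 did, and 13.3% had every linseed library above, as LTB4R did. The same sign in all 3 sheep was found for 26.2% of transcripts in the direction of PTGS2 and for 23.0% in that of LTB4R. A difference at or below that of PTGS2 was found for 7.54% of the tested transcripts and one at or above that of LTB4R for 5.75%. LTB4R passed the threshold through its linseed libraries, since its control mean was under 1 RPKM, and such a transcript had to differ.

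No transcript was called between the diets by limma at an adjusted p of 0.05, 0 of 15891 (0%). At an unadjusted p under 0.05, limma had 2464 transcripts, and voom on the recovered reads, which also called 0, had 2191. Once the sheep entered limma as a block, it called 416 transcripts (2.62%).

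Position within a library does not depend on how libraries are scaled to one another. PTGS2 stood above 51.0%, 47.0% and 62.4% of the tested transcripts in control 1, 2 and 3 and above 6.90%, 17.5% and 35.7% in linseed 1, 2 and 3. LTB4R stood above 3.35%, 3.75% and 10.8% in the controls and above 61.6%, 40.6% and 53.3% with linseed. In every control library PTGS2 thus had the higher level of the pair per length, and in every linseed library LTB4R did.

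The sizes of both differences moved with the processing choice, while the signs stayed. As both genes had groups apart, only the choices that rescale the values, and voom, could have turned a sign. Leaving out control 3, the library richest in PTGS2, took its difference from -1.47 to -0.96 and its ratio of means from 4.44-fold to 2.39-fold lower, and leaving out linseed 3 took that ratio to 10.5-fold. For LTB4R, leaving out control 3 took the ratio of means from 6.73-fold to 15.7-fold higher; control 3 held 68.3% of its control reads. A smaller pseudocount of 0.1 gave -2.34 for PTGS2 and 2.85 for LTB4R. Counted as recovered reads with voom, LTB4R had a difference of 3.46 ± 1.05 (SE), and PTGS2 -2.09 ± 1.05.

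**Figure D2:**
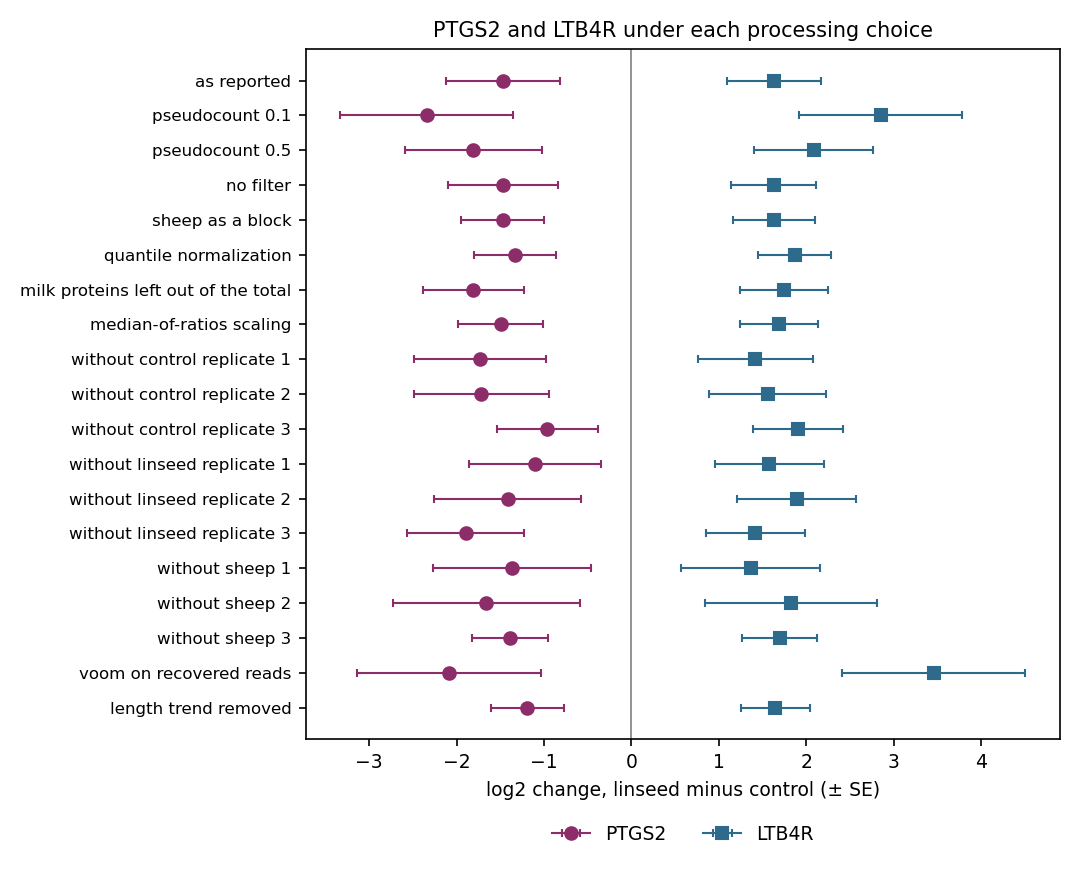
Difference between diets for PTGS2 and LTB4R (linseed minus control, log2 scale, ± SE) as reported and under each other processing choice or set of libraries. All values of PTGS2 lie between -2.34 and -0.96 and all values of LTB4R between 1.36 and 3.46.

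Reads of LTB4R can be shared with its neighbours. In the RefSeq annotation of ARS-UI_Ramb_v3.0, LTB4R2, the low-affinity leukotriene B4 receptor gene, lies within the span of LTB4R, and CIDEB, which encodes a lipid droplet protein, overlaps it in part. Whether the counting used strand is not given in the sources used here. LTB4R2 was at 0, 0 and 0.415 RPKM in the controls and at 0.594, 1.60 and 0.0737 RPKM with linseed. These levels rested on 6 reads over the controls and 19 over the linseed libraries. LTB4R2 was higher with linseed in sheep 1 and 2, as LTB4R was, and lower in sheep 3. CIDEB was at 0.136, 0.419 and 0.811 RPKM in the controls and at 0.124, 0.308 and 0.309 RPKM with linseed, lower in all 3 sheep. CIDEB had 50 reads over the controls and 28 over the linseed libraries. Counts this low do not order the libraries of either neighbour firmly, and how far shared reads bear on LTB4R was not tested. PTGS2 overlaps a non-coding RNA gene, LOC121816051, in that annotation, which is not analysed here.

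The other genes of the pathway were taken from 8 lists by role, 68 genes besides PTGS2 and LTB4R. Of these, 37 were matched in the table and 19 reached a mean of 1 RPKM. Limma called 0 of the 19 without the block and 0 with it, beside 0% and 2.62% of all tested transcripts. An unadjusted p under 0.05 was found for 2 of the 19, beside 2464 of the 15891 tested transcripts. The median difference of the 19 was 0.31, against -0.12 over all tested transcripts. Higher values in all 3 sheep were found for 5 of the 19 (26.3%) and lower values for 2 (10.5%), beside 23.0% and 26.2% of all tested transcripts. The higher share is thus close to the background, and it includes the phospholipase gene PLA2G6, which passed the threshold through its linseed libraries. Linseed ranges apart from the control range were found on the higher side for 2 of the 19 (ALOX5 and MGST2, 10.5%), beside 13.3% of all tested transcripts, and on the lower side for 1 (LTA4H, 5.26%), beside 7.83%.

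Upstream of PTGS2, the phospholipase genes had no common direction. PLA2G4A, the cytosolic phospholipase that frees arachidonic acid, was at 0.347, 5.62 and 4.61 RPKM in controls and 0.138, 0.286 and 6.45 RPKM with linseed. Its groups overlapped, and sheep 1 was the lowest under both diets. PLA2G6, a calcium-independent phospholipase, was higher in all 3 sheep, by 0.59 ± 0.50 (log2 difference, SE). Its control mean was 0.972 RPKM, so that, like LTB4R, PLA2G6 passed the threshold of 1 RPKM through its linseed libraries. PLA2G12A, a secreted phospholipase gene, was lower in all 3, by a difference of -1.21 ± 0.63. PLAA, which encodes a phospholipase-activating protein, had -0.87 ± 0.79, and PLA2G15, a lysosomal phospholipase, 0.39 ± 0.71.

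At the cyclooxygenase step PTGS2 was the measured enzyme. PTGS1, the constitutive cyclooxygenase, was at or below 0.310 RPKM in all 6 libraries and was not tested. PTGS2 was above PTGS1 in 5 of the 6 libraries. In linseed 1, with 3 reads of PTGS2, the levels were 0.174 RPKM for PTGS2 and 0.310 RPKM for PTGS1, an order that this depth does not resolve. Downstream, AKR1B1, an aldose reductase that can form prostaglandin F2alpha, was at 3.01, 13.8 and 4.45 RPKM in controls and 15.1, 16.8 and 9.48 RPKM with linseed. AKR1B1 was higher in all 3 sheep, with overlapping groups and a difference of 1.07 ± 0.66 (SE). HPGDS, the hematopoietic prostaglandin D synthase, was at or below 0.283 RPKM in every library.

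Prostaglandin receptors were led by PTGER4, a receptor for prostaglandin E2 on many white cells. PTGER4 was at 0.783, 11.2 and 44.3 RPKM in controls and 3.15, 4.99 and 14.2 RPKM with linseed. Its control values spanned more than its linseed values, and the sign differed between ewes: higher with linseed in sheep 1 and lower in sheep 2 and 3. PTGER2, another prostaglandin E2 receptor gene, had the same signs, with log2 differences of 0.79, -0.29 and -2.47 in sheep 1, 2 and 3. Of the enzymes that inactivate prostaglandins and leukotriene B4, PTGR1 had 0.31 ± 0.79 (SE) and PTGR2 -0.99 ± 0.56. SLCO2A1, the prostaglandin transporter, was at 0.860, 1.06 and 0.0367 RPKM in controls and was listed at 0 in all linseed libraries, and was not tested.

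Of the 6 tested genes of leukotriene synthesis, 3 (50.0%) were higher in all ewes, as LTB4R was, and 1 (16.7%) was lower. Over all tested transcripts these shares were 23.0% and 26.2%, and a list of 6 genes gives only a coarse share. ALOX5, the first enzyme of leukotriene synthesis, was at 0.326, 3.21 and 1.74 RPKM in controls and 3.98, 4.45 and 10.3 RPKM with linseed. Its linseed libraries lay above its control libraries, with a difference of 1.44 ± 0.64 (SE). ALOX5AP, which presents arachidonic acid to ALOX5, was at 0.245, 5.22 and 6.43 RPKM in controls and 1.60, 9.01 and 17.9 RPKM with linseed, a difference of 1.03 ± 0.89. The groups of ALOX5AP overlapped through linseed 1.

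LTA4H, the hydrolase that makes leukotriene B4, went the other way. It was at 30.6, 20.6 and 16.5 RPKM in controls and 11.9, 16.3 and 16.5 RPKM with linseed. The 2 libraries of sheep 3 were nearly equal, and the difference was -0.54 ± 0.57 (SE). MGST2, which can make leukotriene C4, was at 9.49, 15.7 and 2.50 RPKM in controls and at 36.8, 21.3 and 17.7 RPKM with linseed, a difference of 1.56 ± 0.70. MGST3, a related enzyme, was far higher in sheep 2 than in the other ewes under both diets, at 284.2 and 262.3 RPKM in control 2 and linseed 2. ALOX12, a lipoxygenase of platelets and epithelium, had 0.06 ± 0.61, and its sign turned once the totals were taken without milk proteins (-0.14).

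Among leukotriene receptors LTB4R was the member with a mean of at least 1 RPKM. CYSLTR1, a receptor for cysteinyl leukotrienes, was at 0.195, 0.929 and 1.57 RPKM in controls and 0.828, 0.632 and 1.22 RPKM with linseed, and CYSLTR2 was listed at 0 in all 6 libraries. In controls CYSLTR1 was above LTB4R in each library, and with linseed it was below LTB4R in each. In control 1 and 3, however, CYSLTR1 lay within the 95% counting interval of LTB4R (0.0446 to 0.265 and 0.805 to 1.75 RPKM). The order in those libraries was therefore not resolved. Of the receptors for omega-3 fatty acids and their products, FFAR4 was at 6.33, 10.8 and 35.3 RPKM in controls and 16.1, 16.9 and 18.3 RPKM with linseed, a difference of 0.31 ± 0.68 (SE). GPR18, a receptor for a resolvin, had 0.51 ± 0.88. The epoxide hydrolase gene EPHX1 had -0.40 ± 0.75. CMKLR1, which binds chemerin and resolvin E1, did not reach a mean of 1 RPKM and was high in sheep 3 under both diets, at 1.97 RPKM in control 3 and 2.76 RPKM in linseed 3. Sheep 3 was thus the highest ewe for CMKLR1, as for PTGS2 and LTB4R, under either diet.

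**Figure D3:**
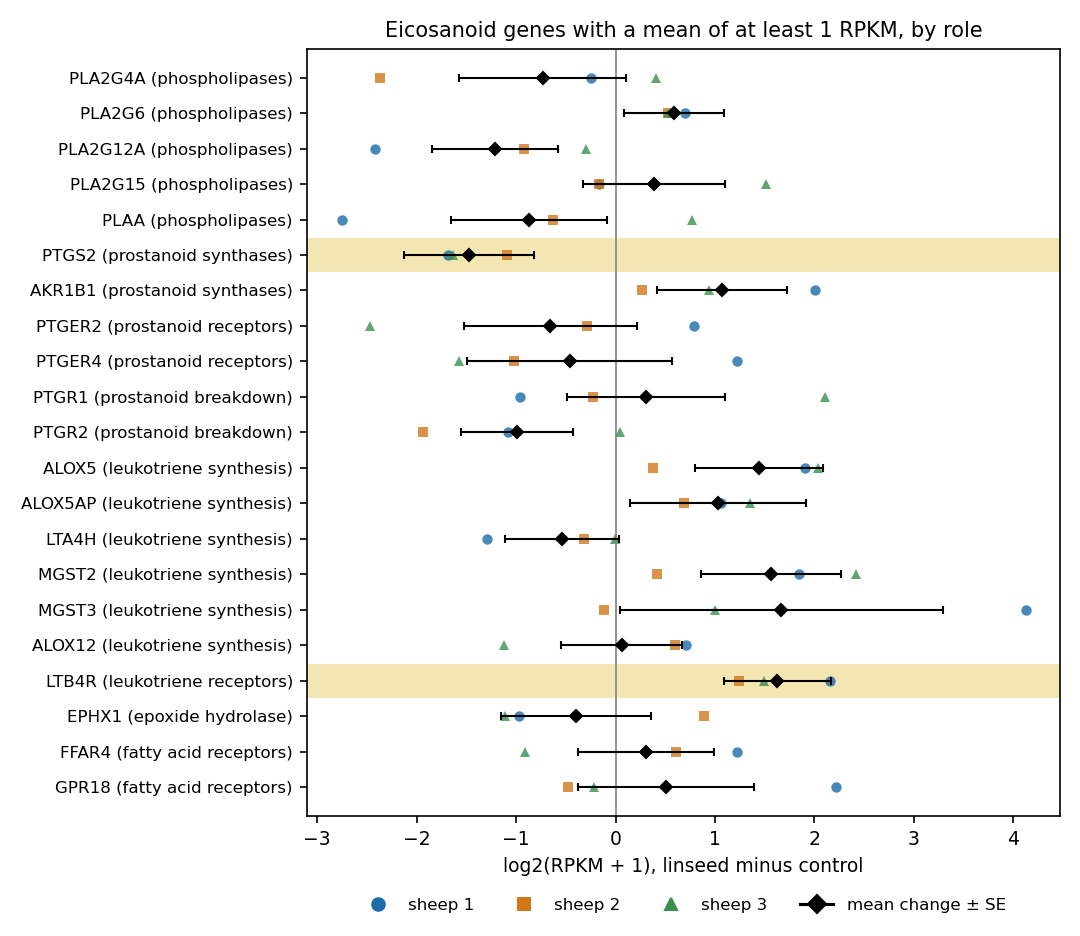
Difference in log2(RPKM + 1), linseed minus control, for the 19 other eicosanoid genes with a mean of at least 1 RPKM and for PTGS2 and LTB4R (shaded), ordered by role. Coloured points are the 3 sheep and black diamonds the mean with its SE; the 3 sheep lie on 1 side of 0 for PTGS2 (-1.47) and LTB4R (1.63), and on both sides for 12 of the other genes.

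PTGS2 is a target of NF-kB and of the immediate early factors, which act within minutes to hours of a stimulus. The list of NF-kB and immediate early genes held 28 inducers and companions of PTGS2. It held genes such as CXCL8, PTX3 and SOD2 besides those factors. Of the 28 genes, 22 were tested. Limma called 0 of them, with 4 at an unadjusted p under 0.05, and with the sheep as a block it called 1, CXCL8 (adjusted p = 0.0441). The list had 7 members lower in all 3 sheep (31.8%) and 2 higher (9.09%), beside 26.2% and 23.0% of all tested transcripts, and a median difference of -0.51 against -0.12.

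The 7 that shared the sign of PTGS2 in all ewes were CXCL8, PTX3, SOD2, KLF6, ZFP36, ATF3 and FOS. CXCL8, the neutrophil attractant interleukin 8, was at 246.3, 411.4 and 2263 RPKM in controls and at 39.1, 48.0 and 473.5 RPKM with linseed. Control 3 was highest for CXCL8, as for PTGS2, but linseed 3 lay above control 1 and 2, so the groups of CXCL8 overlapped. ZFP36, which speeds the decay of inflammatory mRNAs, had a difference of -1.52 ± 0.78 (SE), and KLF6, a transcription factor, -1.80 ± 0.79. The pentraxin gene PTX3 had -2.08 ± 0.74. SOD2, the mitochondrial superoxide dismutase, had -1.85 ± 0.74, and the transcription factor genes ATF3 and FOS had -1.10 ± 0.71 and -0.80 ± 0.82. For PTX3, control 3 and control 1 were nearly equal, at 35.5 and 34.7 RPKM. Control 3 was the highest library for ZFP36, KLF6 and FOS, as for PTGS2 and CXCL8. This was not particular to genes with the sign of PTGS2, since control 3 was also highest for EGR1, NFKBIA and IL1B.

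Other members of that list differed from PTGS2 in sign between ewes. EGR1, an immediate early transcription factor, had differences of 1.47, 1.24 and -2.55 in sheep 1, 2 and 3, where PTGS2 had -1.68, -1.09 and -1.64. The NF-kB inhibitor gene NFKBIA (0.66, 0.89 and -1.24) and the cytokine gene TNF (3.66, 1.502 and -0.57) were also higher in sheep 1 and 2 and lower in sheep 3. IL1B, an inducer of PTGS2 in many cells, was at 2.48, 57.8 and 316.2 RPKM in controls and 23.8, 26.9 and 181.6 RPKM with linseed, higher in sheep 1 and lower in the others. The mean differences of NFKBIA and EGR1 turned in sign under 3 of 4 other scalings, quantile normalization among them (-0.46 and -0.41), and that of IL1B when a trend with transcript length was removed (-0.12). RELB and ICAM1 were higher in all 3 sheep, with differences of 1.07 ± 0.58 and 1.08 ± 0.77 (SE).

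**Figure D4:**
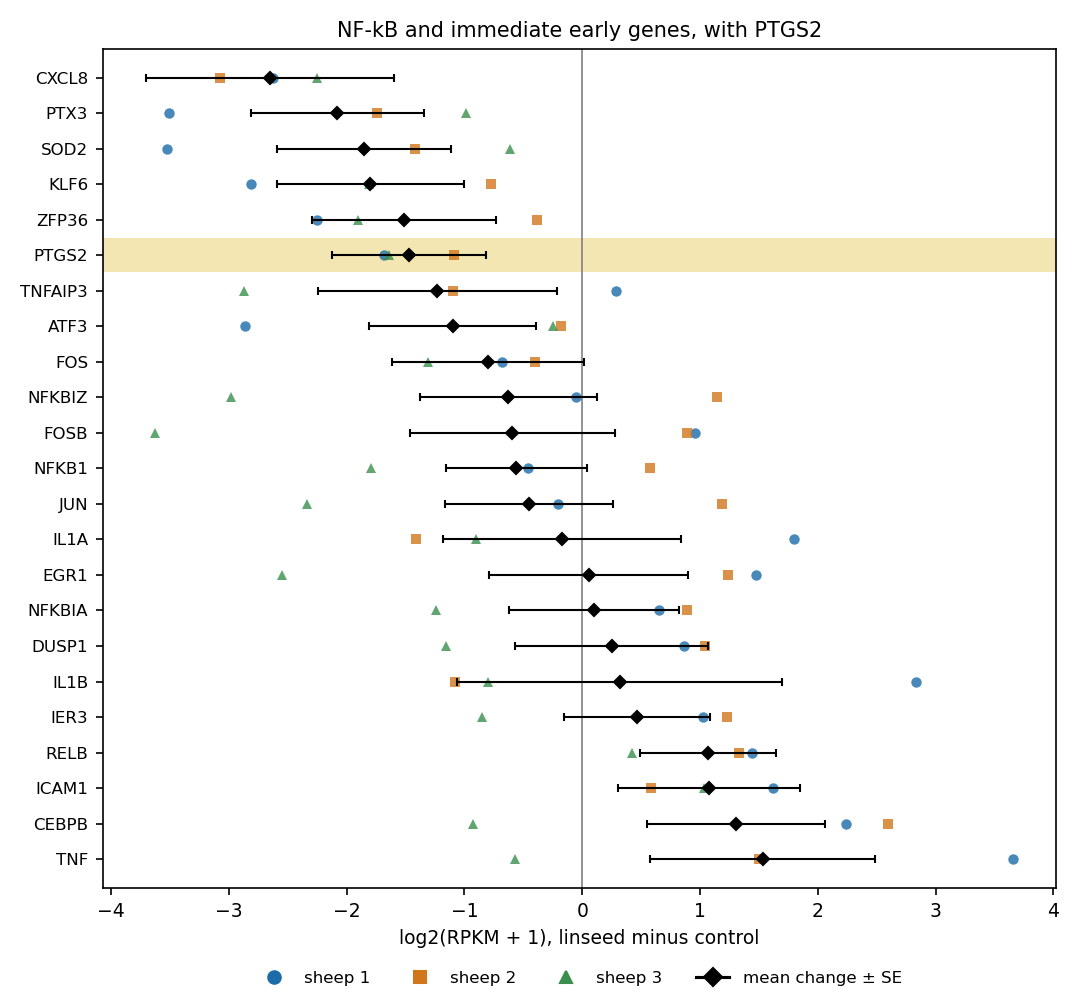
Difference in log2(RPKM + 1), linseed minus control, for 22 NF-kB and immediate early genes and PTGS2 (shaded), sorted by the mean difference. Coloured points are the 3 sheep and black diamonds the mean with its SE; sheep 3 lies apart below 0 for genes such as EGR1 (-2.55), whereas the 3 sheep of PTGS2 lie between -1.68 and -1.09.

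Levels in whole milk cells also follow which cells were shed: in such bulk libraries, fewer cells of a type and less RNA per cell cannot be told apart. For the neutrophil list, 7 of 15 genes were tested, and their summed level was 437.5 to 1035 RPKM in controls and 2359 to 3223 RPKM with linseed. S100A8 and S100A9, the subunits of calprotectin, made up most of that sum. Both had every linseed library above every control library, which makes 2 of the 7 (28.6%), beside 13.3% of all tested transcripts. The groups of the other tested neutrophil genes overlapped. CXCR2, a chemokine receptor of neutrophils, was at 0.0977, 4.99 and 7.99 RPKM in controls and 4.03, 9.78 and 9.24 RPKM with linseed, higher in all 3 sheep by 1.08 ± 0.80 (SE), and overlapping between groups. MMP9, a protease of neutrophil granules, had 2.10 ± 1.03, while FCGR3A (0.24 ± 1.49) differed in sign between ewes. MMP8, another granule protease, was listed at 0 in all 6 libraries. PGLYRP1 had 0.10 ± 0.88, with a sign that turned with totals that omit milk proteins (-0.12) and with the length trend removed (-0.20). In all, 4 of the 7 were higher in every sheep, as LTB4R was, beside 23.0% of all tested transcripts. Limma called 0 of the 7 with or without the block, beside 2.62% and 0% of all tested transcripts. An unadjusted p under 0.05 was found for 2 of the 7, beside 2464 of the 15891 tested transcripts. The part of these 7 genes in the difference of LTB4R was not tested.

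Macrophage markers divided. Of 16 genes, 10 were tested, 4 were higher in all 3 sheep as LTB4R was (CD68, C1QA, TREM2 and AIF1) and 3 lower as PTGS2 was (MRC1, ITGAM and ITGAX), beside 23.0% and 26.2% of all tested transcripts. Their summed level was 119.3 to 1275 RPKM in controls and 921.5 to 2113 RPKM with linseed. TREM2, a lipid receptor of macrophages, was at 6.75, 83.0 and 13.5 RPKM in controls and 304.0, 257.6 and 276.9 RPKM with linseed. In the fit with the block, limma called TREM2 (adjusted p = 0.0401), whereas without the block its adjusted p was 0.263. It was 1 of the 10 macrophage genes called with the block, beside 2.62% of all tested transcripts. MRC1, the mannose receptor gene, was at 2.77, 7.36 and 12.4 RPKM in controls and 0, 1.23 and 5.73 RPKM with linseed, and so lowest in linseed 1 and highest of the linseed libraries in sheep 3, as PTGS2 was. The part of these markers in either difference was not tested.

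Epithelial and lymphocyte lists were set beside PTGS2 too. Of 8 tested epithelial genes, caseins included, 6 were lower in all 3 sheep, beside 26.2% of all tested transcripts, with a median difference of -1.82 and summed levels of 26183 to 333780 RPKM in controls and 6356 to 98670 RPKM with linseed. CD24, a surface protein taken into the epithelial list, was at 265.3, 132.8 and 286.9 RPKM in controls and 29.6, 38.5 and 51.7 RPKM with linseed. It reached an adjusted p of 0.0461 in limma with the block and 0.263 without it. With the block, limma called 1 of the 8 epithelial genes, beside 2.62% of all tested transcripts. The controls of CD24 did not follow those of EPCAM, another gene of the list, which was at 214.5, 90.9 and 17.8 RPKM in control 1, 2 and 3. KRT8, a keratin of epithelium, was at 17.6, 98.6 and 54.5 RPKM in controls and 354.9, 499.9 and 21.3 RPKM with linseed, and so higher with linseed in sheep 1 and 2 and lower in sheep 3. LALBA, the milk protein alpha-lactalbumin, had the same signs (1.29, 0.46 and -0.58). The milk protein list had 7 of its 11 genes lower in each ewe. PAEP, beta-lactoglobulin, was again higher in sheep 1 and 2 and lower in sheep 3 (2.06, 1.46 and -1.09). T and NK cell genes had summed levels of 15.7 to 1093 RPKM in controls and 269.7 to 635.6 RPKM with linseed. Their median differences were 1.45, -1.09 and -2.08 in sheep 1, 2 and 3. Of the 10 tested, 2 (CD247 and IL7R, 20.0%) were lower in all 3 sheep, as PTGS2 was, and 0 were higher. Over all tested transcripts these shares were 26.2% and 23.0%. The most abundant T and NK cell gene, GNLY of cytotoxic granules, had 6.49, 0.35 and -1.90, and CD3E of the T cell receptor complex 3.70, -1.28 and -1.78. B cell genes summed to 1.13 to 25.8 RPKM in controls and 6.35 to 25.8 RPKM with linseed, and 4 were tested. CD79B and MS4A1 were higher in all 3 sheep, and JCHAIN of plasma cells was lower (-0.46 ± 0.92, SE). CD79A (0.64 ± 0.72) differed in sign between ewes, and the median difference of the 4 was 0.62. JCHAIN had the highest control mean of the 4, 6.92 RPKM, and CD79A the highest linseed mean, 5.03 RPKM. The 4 matched eosinophil and mast cell genes were at or below 0.360 RPKM, and none was tested. Whether the epithelial share bears on PTGS2 was not tested.

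**Figure D5:**
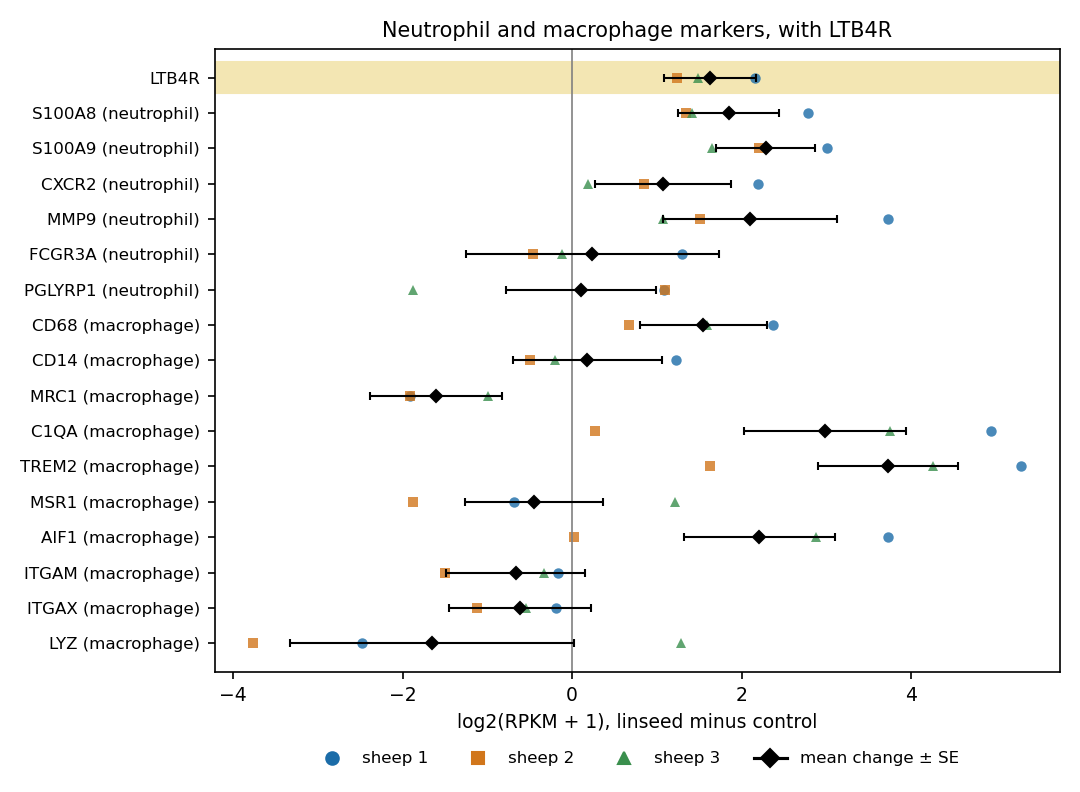
Difference in log2(RPKM + 1), linseed minus control, for LTB4R (shaded) and the tested neutrophil and macrophage markers, 1 neutrophil gene left out. Coloured points are the 3 sheep and black diamonds the mean with its SE; S100A8 (1.85) and S100A9 (2.28) lie above 0 in all sheep as LTB4R does, and MRC1 (-1.61) lies below.

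Genes with the pattern most like that of each gene over the 6 libraries were found by Pearson r of log2(RPKM + 1) among 5975 other genes. The points share library depth and cell makeup, and r is a description over 6 libraries. For PTGS2 the nearest genes were ING3 (r = 0.997), a subunit of a histone acetyltransferase complex, SEC61A2 (0.995), a channel protein of the endoplasmic reticulum, LOC101117269 (0.995), TMEM161B (0.994) and FGFR1OP2 (0.993). ING3 was at 2.20, 2.04 and 7.72 RPKM in controls and 0.114, 0.753 and 2.23 RPKM with linseed, below the level of PTGS2 in each library. As many as 790 of the 5975 genes had an r of at least 0.9 with PTGS2, so its pattern was a common one.

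For LTB4R, 133 of the 5975 genes had an r of at least 0.9. The nearest were USHBP1 (r = 0.992), LOC101112585 (0.984), the zinc finger gene ZNF786 (0.984), GPBAR1 (0.981) and RTF2 (0.979), a gene of DNA replication. GPBAR1, a cell surface receptor for bile acids found on macrophages, was at 0.154, 0.450 and 1.01 RPKM in controls and 1.93, 1.21 and 1.93 RPKM with linseed. Like LTB4R, GPBAR1 was lowest in control 1, and its lowest linseed library was that of sheep 2. RTF2 was at 34.0, 43.3 and 56.7 RPKM in controls and 78.7, 75.9 and 96.4 RPKM with linseed, a smaller difference at a higher level.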

How the data were processed

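Per the labels' protocols, cells of 250 ml of milk were pelleted and libraries made with the TruSeq RNA kit; the submitters' processing notes name Trimmomatic 0.33. Not given in the sources used here are the build, the aligner and the tool for counting. The authors deposited RPKM values per RefSeq transcript; the labels carry no diet field, and groups follow the letter of the title read with the series design. The steps between low RPKM values gave the library totals, the transcript lengths and so the reads behind each value (tolerance 0.002 reads). On simulated data, reads were exact in all libraries for 98.94% of the 18976 transcripts that had 100 reads or more. Symbols came from a RefSeq table of ARS-UI_Ramb_v3.0, matched without version (15836 transcripts, 31.9%); PTGS2 matched with its version. Each gene enters by its most abundant transcript.

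Transcripts that averaged 1 RPKM or more were compared on log2(RPKM + 1) with limma 3.58.1 in R 4.3.3 (mean-variance trend, Benjamini-Hochberg over 15891 transcripts, adjusted p under 0.05 called), without a block. The fit was checked on simulated data. PTGS2, LTB4R and all lists were chosen with earlier results of these data known. The text names every tested eicosanoid gene, some of the most abundant and all called genes of the other lists, further genes chosen after their values were seen, and the 5 genes nearest in pattern. Ewe identifiers pair the libraries: deviations of paired libraries correlated at 0.18, 0.25 and 0.40 in sheep 1, 2 and 3, while the control of sheep 1 reached 0.24 with another ewe's linseed library. The number of sheep is 3. Without the block, p-values rest on the spread between ewes within each diet. With it, they rest on how the difference between diets varies from ewe to ewe. Each SE of a log2 difference comes from limma, which draws the variance of a transcript toward that of all transcripts in the fit. Exact Poisson and binomial intervals are at 95%. A gene of the neutrophil list is not reported here by name.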

Additional observations from a re-analysis of the deposited data

How the results depend on the processing

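The sign of PTGS2 was kept in 18 of 18 other settings and that of LTB4R in 18 of 18. Every linseed library lay on 1 side of every control library for both genes. Leaving out a library or a sheep, another pseudocount, no filter and the block therefore could not turn a sign. Only the other scalings, the removal of a length trend and voom could have done so. In all but 1 setting for PTGS2 and 2 for LTB4R the value moved by less than the pooled SD within the diet groups (0.84 and 0.49). Those were a pseudocount of 0.1 (-2.34 for PTGS2 and 2.85 for LTB4R) and voom on the recovered reads (3.46 for LTB4R); the cause was not tested beyond the weight that a smaller pseudocount gives to low values. Leaving out 1 library gave -1.90 to -0.96 for PTGS2 (the latter without control 3) and 1.42 to 1.91 for LTB4R, and 0 calls each time over all transcripts, among the eicosanoid genes and among the NF-kB genes. Where 1 library was left out, its group kept 2. At a mean of at least 5 RPKM neither gene was tested, so that setting gives them no value. With milk proteins out of the totals, the median over the tested transcripts went from -0.12 to -0.28, and PTGS2 then had -1.81 and LTB4R 1.74. The removal of a length trend was chosen after seeing the data and gave -1.19 and 1.65.

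The sheep as a replicate block raised the calls from 0 to 416 transcripts (203 higher, 213 lower) and the NF-kB genes called from 0 to 1; the eicosanoid genes called stayed at 0. The block left both differences as they were, with an SE of 0.47 for each. The 5 genes named as nearest to PTGS2 shared 0 with the 5 nearest by Spearman's rho and 0 with the 5 nearest after each sheep's mean was removed; for LTB4R these numbers were 4 and 0. At a rank correlation of 1 stood 50 genes for PTGS2 and 40 for LTB4R, so 6 libraries do not order the nearest genes firmly. Depth limits PTGS2 in linseed 1 (3 reads) and LTB4R in control 1 and 2 (6 and 7 reads).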
